A study of Sus scrofa with 16 samples.

Results

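The genes described here make fatty acids from acetyl-CoA and store them as triacylglycerol, and were chosen by name: FASN, ACACA, ACLY, SCD, ME1, SREBF1, ELOVL6, FADS2, DGAT2 and GPAM. A probe was taken as a member when it was not a control and the scanner file gave it the name of a listed gene. Probes were found for 8 of the 10 genes, 24 in all among the 43603 of the array. SCD had 9 probes, FASN and ACLY had 3 each, ACACA, ME1, SREBF1 and DGAT2 had 2 each, and FADS2 had 1. No probe carried the name of ELOVL6 or GPAM, so their levels are not reported.

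Duroc × Landrace × Large White barrows received feed with either corn starch (CS) or raw potato starch (RPS), much of which escapes digestion in the small intestine. The starch made up 230 g per kg of feed from an age of 70 days and 280 g per kg from an age of 120 days, with 50 days on each diet, and the pigs were slaughtered at 170 days after their feed had been withdrawn. The 16 arrays fell into 4 groups of 4, namely liver with CS, liver with RPS, colonic mucosa with CS and colonic mucosa with RPS, drawn at random from the slaughtered pigs of each diet. RNA came from liver and from mucosa scraped off the proximal colon, so fewer cells of a type and less RNA per cell cannot be told apart. Fewer pigs were slaughtered per diet than its 8 arrays, so liver and colonic arrays of a diet shared some pigs if all came from that slaughter. The labels do not tie arrays to pigs, and the tests between tissues took the arrays as independent. Each group lay on 1 slide that was scanned in 1 run, so diet, tissue and slide cannot be told apart either. Signals are given on the log2 scale after quantile normalization, within a tissue where diets are compared and over all 16 arrays where tissues are compared.

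Lipogenesis starts in the cytosol with citrate, which ATP citrate lyase (ACLY) cleaves to acetyl-CoA. Acetyl-CoA carboxylase (ACACA) forms malonyl-CoA, and fatty acid synthase (FASN) builds palmitate from it with NADPH, part of which malic enzyme (ME1) supplies. Stearoyl-CoA desaturase (SCD) and the delta-6 desaturase FADS2 introduce double bonds, and DGAT2 adds the last acyl chain of triacylglycerol. The transcription factor SREBP-1, encoded by SREBF1, drives many of these genes when insulin is high and is itself regulated by proteolytic release from a membrane. In pigs adipose tissue is the main site of fatty acid synthesis, and the pathway in liver and gut mucosa is of smaller scale.

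The array read each transcript through oligonucleotides of 60 bases, and the sequences printed here show what the reported signals are based on. For 3 probes that hold exactly 1 forward reading frame without a stop codon, the whole codons of that frame are in capitals.

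ACACA A_72_P442314: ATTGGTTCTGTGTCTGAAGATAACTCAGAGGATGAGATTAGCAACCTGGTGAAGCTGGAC
ACLY A_72_P710913: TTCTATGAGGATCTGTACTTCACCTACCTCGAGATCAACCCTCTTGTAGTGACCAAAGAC
FADS2 A_72_P244657: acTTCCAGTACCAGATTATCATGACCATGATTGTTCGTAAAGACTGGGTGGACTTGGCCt

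The probes for SREBF1, DGAT2 and SCD that follow hold more than 1 such frame and are therefore in lower case throughout. They are shown because the SREBF1 probe gave the only member call for a diet effect that differed between tissues, and DGAT2 and SCD showed large differences between liver and colon.

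SREBF1 A_72_P326973: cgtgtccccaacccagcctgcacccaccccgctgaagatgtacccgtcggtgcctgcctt
DGAT2 A_72_P288804: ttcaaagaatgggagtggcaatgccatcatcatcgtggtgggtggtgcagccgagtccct
SCD A_72_P558694: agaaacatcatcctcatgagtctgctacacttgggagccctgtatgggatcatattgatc

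In 3 of the 24 probes, each of them the main probe of its gene, the polyadenylation hexamer AATAAA was found, against 9.6% of all 43603 probes (search on the printed strand). The hexamer marks the end of many transcripts, and 30 bases around it are shown with the hexamer in capitals.

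ACLY A_72_P165331: catagtttggtttaAATAAActatatcata
SCD A_72_P088586: gtgtttgttcatAATAAAagggaagtgaat
ME1 A_72_P444471: accaaaattagtAATAAAatggtatgatca

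Probes of a gene were not independent readings, since they measured the same RNA on the same arrays. In addition, the SCD probes A_72_P578058 and A_72_P564094 shared a run of 27 bases (tagttatttgtggcctaagaataattt), and A_72_P586756 and A_72_P600413 shared 21 bases (gaactgtgtccaccatgaacc). The main probe of a gene is the one with the highest mean signal over the 16 arrays, and it stands for the gene unless another is named. Only the FADS2 probe missed the scanner software's mark for signals well above background, on 3 arrays of the colon with RPS.

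Across all arrays, 61.0% to 72.2% of probes were well above background, no spot was saturated, and arrays of the same group correlated with r between 0.938 and 0.990. The tissue labels were borne out by marker genes. The summed signal of 7 hepatocyte genes (albumin among them) was 20.67 to 20.84 (log2) on the liver arrays and 9.19 to 10.78 on the colonic arrays. The summed signal of 10 epithelial genes was 17.86 to 19.92 on the colonic arrays and 14.28 to 15.15 on the liver arrays. In the colon, CS replicate 3 and RPS replicate 2 stood apart, with the lowest epithelial sums (17.86 and 18.45) and the highest signals of the B cell gene MS4A1 (12.68 and 12.53, against 6.25 to 10.20 on the other colonic arrays). The diet differences of the member genes in the colon are therefore also given without these 2 arrays. Colonic values of the other pathway genes are given with all arrays only.

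**Figure D1:**
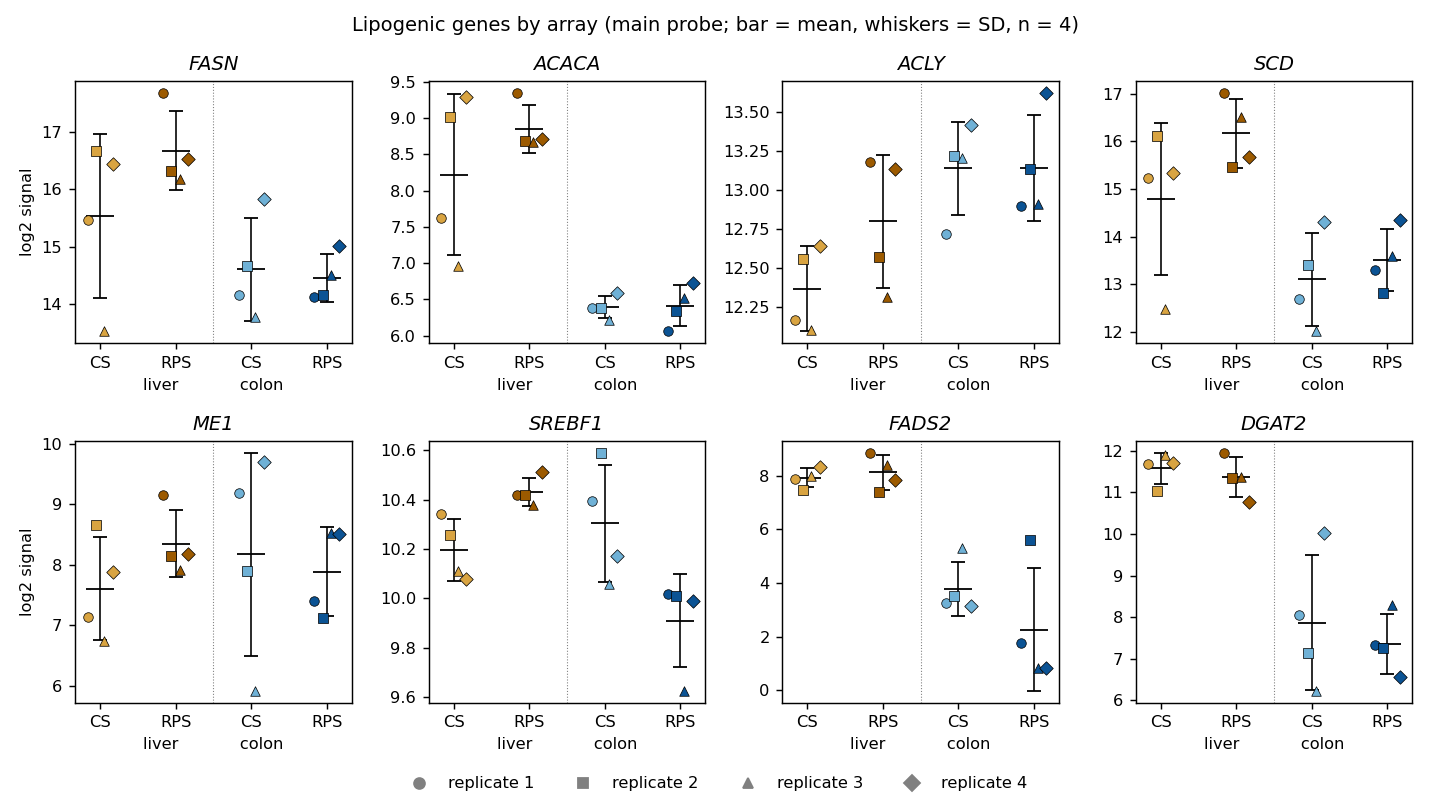
Log2 signal of the main probe of each of 8 genes on every array, normalized within each tissue, with points for single arrays (marker shape gives the replicate number), a horizontal bar for the group mean and whiskers for the SD of 4 arrays. Liver CS replicate 3 lies at the bottom of its group for FASN, ACACA, ACLY, SCD and ME1, and the diet groups are free of overlap for SREBF1 alone.

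The first question was whether replacing corn starch by raw potato starch changed hepatic lipogenic transcripts. At 22 of the 24 probes the mean was higher with RPS, and the 16 probes of FASN, ACACA, SCD and ME1 all had means more than 1.5-fold higher, but 0 of the 24 passed the thresholds of unadjusted p below 0.05 with 1.5-fold, against 3.56% of all probes. Unadjusted p in limma was below 0.05 at 2 probes, both of SREBF1, and the adjusted p over all probes lay between 0.542 and 0.961. All FASN, ACACA, ACLY, SCD, ME1, SREBF1 and FADS2 probes pointed up and both DGAT2 probes pointed down, but probes of a gene do not count as separate evidence. Over all 43603 probes, 49.0% were higher with RPS.

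FASN, which builds the saturated fatty acid chain, had signals of 15.47, 16.67, 13.54 and 16.44 on the liver arrays with CS (replicates 1 to 4) and of 17.67, 16.31, 16.17 and 16.52 with RPS. The spread was wider with CS, where replicate 3 lay far below the other arrays, and RPS replicate 1 was the highest of the 8 arrays. The mean was 16.67 ± 0.68 for RPS and 15.53 ± 1.43 for CS (SD, n = 4 each), a difference of 1.14 (SE 0.71) on the log2 scale or 2.20-fold, with an adjusted p of 0.778 in limma and p = 0.257 in an exact two-sided permutation test. The smallest p that 4 arrays against 4 allow is 0.0286. The other FASN probes gave differences of 1.16 and 1.41.

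SCD, which makes oleate from stearate, followed the same arrays. Its signals were 15.24, 16.12, 12.47 and 15.33 with CS and 17.02, 15.47, 16.51 and 15.68 with RPS. CS replicate 3 was again far below the others, CS replicates 1 and 4 lay just under the lowest RPS array, and CS replicate 2 lay inside the RPS range. The difference of 1.38 (SE 0.79), or 2.60-fold, had an adjusted p of 0.752 in limma. The 9 SCD probes gave differences from 1.27 to 1.73, of which 1.27 came from A_72_P564094, whose spot on RPS replicate 3 was an outlier and was left missing. From the lowest to the highest liver array, SCD signals spanned 23.4-fold to 37.6-fold over these probes and FASN signals spanned 17.6-fold to 32.6-fold.

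ACACA, which commits acetyl-CoA to fatty acid synthesis, had signals of 7.62, 9.02, 6.96 and 9.29 with CS and 9.35, 8.68, 8.67 and 8.71 with RPS. CS arrays 2 and 4 lay above 3 of the 4 RPS arrays, so the groups overlapped widely. The difference was 0.63 (SE 0.53), with an adjusted p of 0.850 in limma. ME1, a source of NADPH, had signals of 7.13, 8.65, 6.74 and 7.88 with CS and 9.15, 8.14, 7.92 and 8.18 with RPS, a difference of 0.75 (SE 0.46) with an adjusted p of 0.771 in limma. ACLY, which supplies acetyl-CoA, varied less, with 12.16, 12.56, 12.10 and 12.64 with CS and 13.18, 12.57, 12.31 and 13.14 with RPS. Its difference of 0.43 (SE 0.24) was below 1.5-fold and had an adjusted p of 0.739 in limma.

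SREBF1, the regulator, showed a small difference without overlap between the diets. Its main probe gave 10.34, 10.26, 10.11 and 10.08 with CS and 10.42, 10.42, 10.38 and 10.51 with RPS. Every RPS array lay above every CS array at this probe and also at the other SREBF1 probe (10.45, 10.39, 10.48 and 10.20 against 10.734, 10.692, 10.699 and 10.518). The differences were 0.23 (SE 0.09) and 0.28 (SE 0.09), that is 1.18-fold and 1.21-fold, with unadjusted p of 0.0279 and 0.0183 and adjusted p of 0.590 and 0.542 in limma. For each of them p was 0.0286 by exact permutation (two-sided), the smallest possible value. The sequence of the other probe, A_72_P223967, is 81.7% G and C and holds runs that look like cloning sites. Whether that probe reads SREBF1 alone was not tested. Non-overlap of the diet groups was found at 4.45% of all probes in liver, and at both SREBF1 probes but at none of the other 22 member probes.

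FADS2 and DGAT2 did not follow the FASN pattern. FADS2, which desaturates linoleate, had signals of 7.89, 7.47, 8.01 and 8.32 with CS and 8.86, 7.38, 8.40 and 7.84 with RPS. The difference was 0.20 (SE 0.34). DGAT2, which completes triacylglycerol, had signals of 11.67, 11.04, 11.90 and 11.71 with CS and 11.94, 11.34, 11.37 and 10.77 with RPS. The difference was -0.22 (SE 0.28), with an adjusted p of 0.889 in limma, and CS replicate 3, lowest for FASN and SCD, was the highest CS array for DGAT2.

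**Figure D2:**
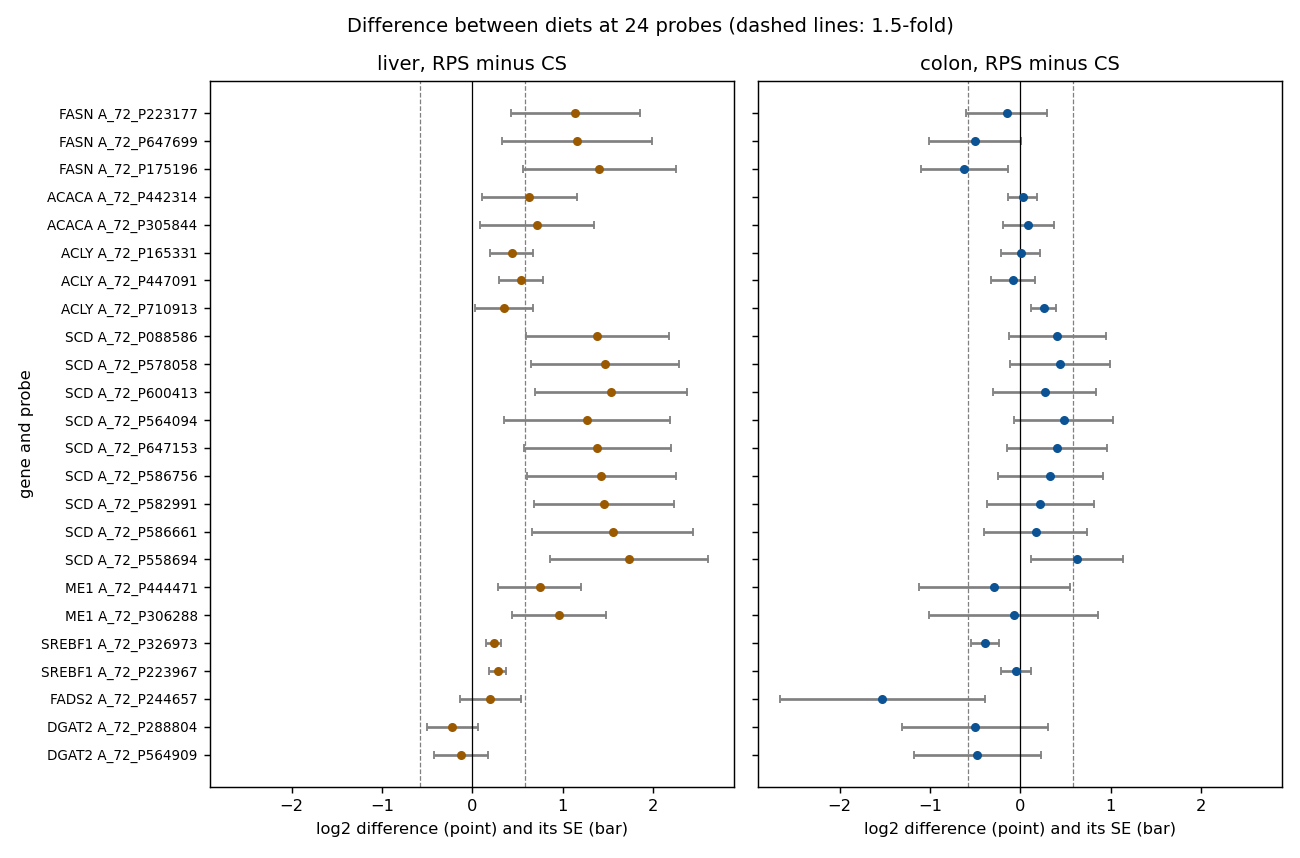
Difference between the diets, RPS minus CS, at each of the 24 probes in liver (left) and colon (right), on the log2 scale, with bars for the standard error from limma and dashed lines at 1.5-fold. In liver the 9 SCD probes lie between 1.27 and 1.73 with wide error bars and both DGAT2 probes lie below 0, whereas in colon the FASN probes lie between -0.62 and -0.15.

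The hepatic differences changed when single arrays were left out. CS replicate 3 was the lowest of the 8 liver arrays at 19 of the 24 probes, and RPS replicate 1 was the highest at 22. Without CS replicate 3 the differences fell to 0.47 for FASN, 0.61 for SCD, 0.21 for ACACA and 0.46 for ME1, and 0 of the 24 probes passed the thresholds. Without CS replicate 2, an array with high FASN and SCD signals, 5 probes passed, 3 of SCD and both of ME1, and the FASN difference was 1.52. ACLY passed at 2 probes without RPS replicate 3 and at 1 without CS replicate 4. These SCD, ME1 and ACLY calls had adjusted p of 0.533 to 0.688 in limma. Of all 43603 probes, 1502 passed without CS replicate 3 and 1623 without CS replicate 2. Without RPS replicate 3 it was 1582 and without CS replicate 4 it was 1668. The summed hepatocyte signal of CS replicate 3 was 20.84, the highest of the liver arrays, and its albumin signal was 18.30 against 18.04 to 18.26 on the others.

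**Figure D3:**
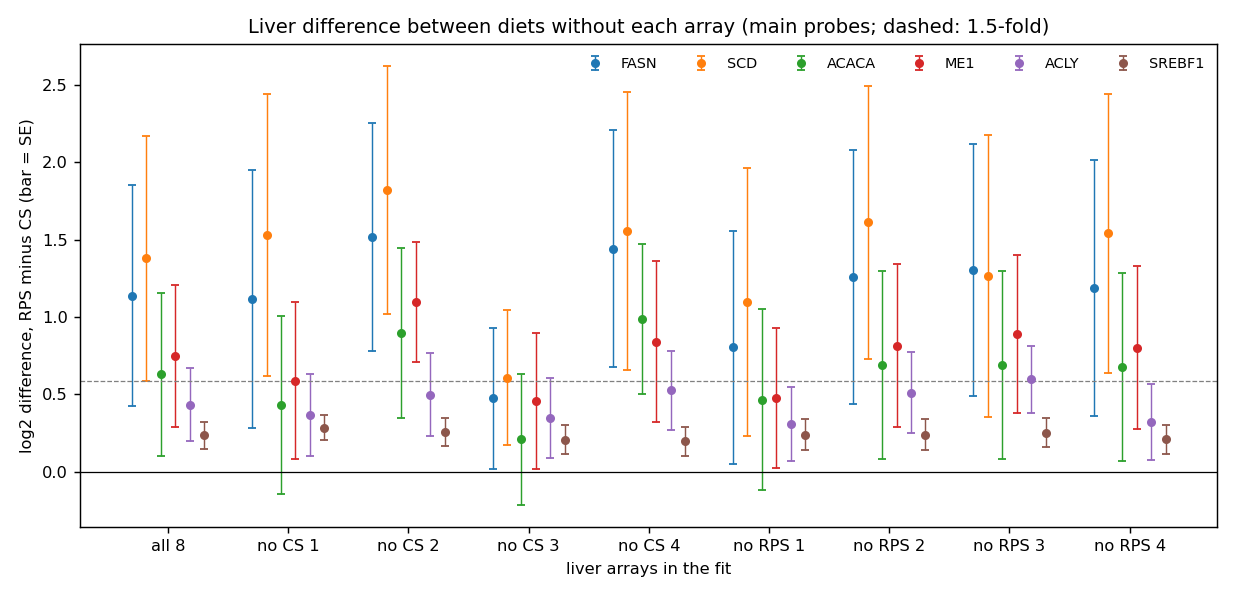
Difference between the diets in liver, RPS minus CS on the log2 scale, for the main probes of 6 genes with all 8 liver arrays and with each array left out in turn, with bars for the standard error and a dashed line at 1.5-fold. The FASN difference ranges from 0.47 without CS replicate 3 to 1.52 without CS replicate 2, while that of SREBF1 stays between 0.19 and 0.28.

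Beyond the diet means, the liver arrays differed together in most of these genes. After the mean of each diet was subtracted, the ACACA probes correlated with the main FASN probe over the 8 liver arrays with r of 0.93 and 0.96, 8 SCD probes with r from 0.85 to 0.93, and the ME1 probes with r of 0.90 and 0.85. The ACLY probes gave r from 0.57 to 0.70, whereas SREBF1 gave 0.20 and -0.39, FADS2 0.17 and DGAT2 -0.16 and -0.15. These values describe 8 arrays that share 1 slide per diet. Among 14627 named probes ranked in this way, the 5 most like FASN were AQP2 (0.99), TALDO1 (0.98), TTC13 (0.98), TMEM67 (0.96) and PI4K2A (0.96). TALDO1 encodes transaldolase of the pentose phosphate pathway.

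**Figure D4:**
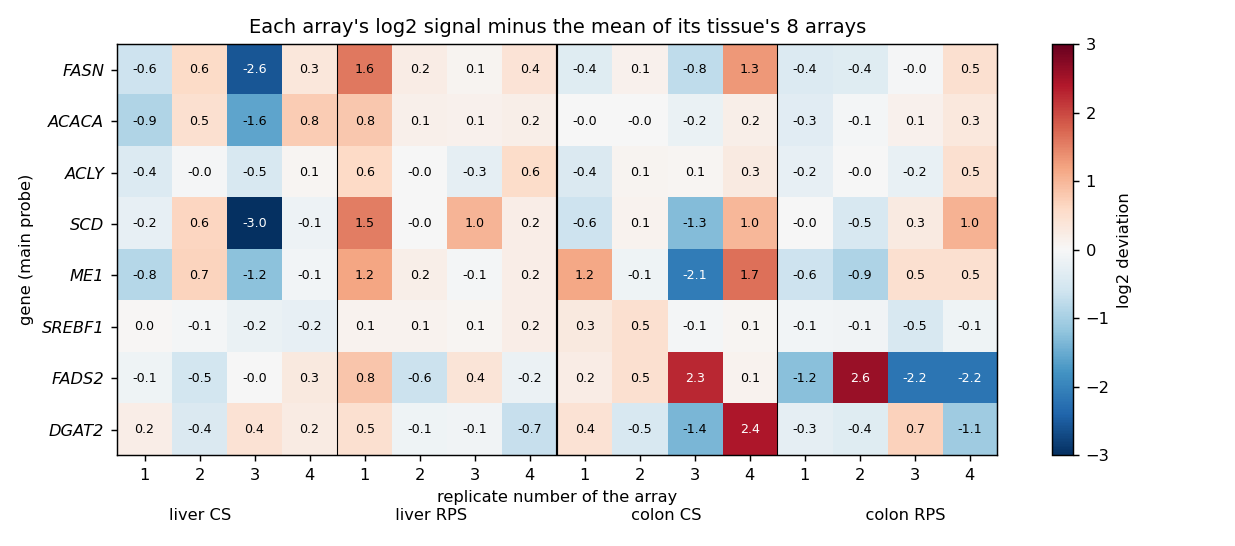
Deviation of each array from the mean of the 8 arrays of its tissue, on the log2 scale, for the main probe of 8 genes (rows) on 16 arrays (columns, with lines between groups), with the number in each cell. Liver CS replicate 3 is at -2.56 for FASN and -3.01 for SCD, and colon CS replicate 4 is the highest array for DGAT2.

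In the colonic mucosa the same question gave no member call either. Of the 24 probes, 13 were higher and 11 lower with RPS, 0 passed the thresholds, against 2.94% of all probes, and 1 had an unadjusted p below 0.05 in limma. FASN had signals of 14.16, 14.66, 13.78 and 15.83 with CS and 14.13, 14.16, 14.50 and 15.02 with RPS. The RPS arrays lay inside the range of the CS arrays, and the difference was -0.15 (SE 0.45). SCD had signals of 12.69, 13.42, 12.02 and 14.30 with CS and 13.29, 12.82, 13.59 and 14.36 with RPS, a difference of 0.41 (SE 0.54). ACACA differed by 0.03 (SE 0.16) and ACLY by 0.00 (SE 0.22). Without both arrays that stood apart, the difference was -0.33 for FASN, 0.28 for SCD, -0.01 for ACACA and 0.03 for ACLY. The ACACA means of the diets lay 1.02-fold apart and the ACLY means 1.00-fold apart.

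SREBF1 was lower with RPS in the colon at its main probe, with 10.39, 10.59, 10.06 and 10.17 with CS and 10.02, 10.01, 9.63 and 9.99 with RPS. All RPS arrays lay below all CS arrays, which was the case in either direction at 6.51% of all probes. The difference of -0.39 (SE 0.16), or 1.31-fold, had an unadjusted p of 0.0381 and an adjusted p of 0.8998 in limma, and p = 0.0286 in the exact two-sided permutation test. Without both arrays that stood apart it was -0.51. The other SREBF1 probe gave -0.05 (SE 0.17), and its groups overlapped, so the 2 probes disagreed in the colon.

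ME1 and DGAT2 varied widely between colonic arrays of the same diet. DGAT2 had signals of 8.04, 7.14, 6.24 and 10.03 with CS and 7.33, 7.26, 8.30 and 6.56 with RPS. CS replicate 4 was the highest array and CS replicate 3 the lowest, so the CS group spanned the whole range. ME1 had signals of 9.18, 7.90, 5.92 and 9.69 with CS and 7.40, 7.11, 8.52 and 8.51 with RPS, with the same arrays at the ends. The difference was -0.50 (SE 0.81) for DGAT2 and -0.29 (SE 0.84) for ME1, and both turned positive, to 0.22 each, without CS replicate 4. Without both arrays that stood apart they were -1.01 for DGAT2 and -0.78 for ME1, and neither passed. On that array the adipocyte gene ADIPOQ had its highest signal over the 16 arrays, 13.73, against 8.43, 1.51 and 9.52 on the other CS arrays and 1.25, 8.64, 9.10 and 5.14 on the RPS arrays. ADIPOQ was not well above background on any liver array. FABP4 (15.15 against 7.09 to 10.93), CIDEC (13.16 against 8.32 to 9.70), CIDEA (9.30 against 4.51 to 6.83) and PLIN1 (5.64 against 0.95 to 2.89) also peaked on colon CS replicate 4. CFD (16.73 against 16.14 to 17.30) and LEP (7.38 against 7.02 to 7.47) did not. Signals by array are not given for RETN, ADIPOR2 and TUSC5, the remaining markers of the list. The summed signal of 10 adipocyte markers, most of it from CFD, was 16.33 to 17.49 in the colon with CS and 16.86 to 17.40 with RPS. All 8 member genes lay above their colonic mean on colon CS replicate 4, which was also the highest colonic array for FASN (15.83). Without it the FASN difference turned from -0.15 to 0.26. The part of adipocytes in the signals of DGAT2, ME1 and the other member genes was not tested.

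FADS2 was close to background in the colon. Its signals were 3.246, 3.501, 5.287 and 3.126 with CS and 1.78, 5.61, 0.84 and 0.82 with RPS, and only replicate 2 of the RPS arrays was well above background. The highest signals were those of CS replicate 3 and RPS replicate 2, the arrays with the highest MS4A1 and the lowest epithelial signals. The difference of -1.53 (SE 1.13) did not pass (unadjusted p = 0.218, adjusted p = 0.982 in limma). It passed without RPS replicate 2 (adjusted p = 0.334 in limma) and without both arrays that stood apart (adjusted p = 0.231 in limma). None of the 3 remaining RPS arrays was well above background, so only a bound can be given. With the lowest signal above background of each array used for them, the mean with CS was at least 1.47-fold higher in the former comparison and at least 1.04-fold higher in the latter. The part of B cells or epithelium in the FADS2 signal was not tested.

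Whether the diet acted differently in the tissues was tested with an interaction term over all 16 arrays. The colonic effect minus the hepatic effect was negative at all 24 probes, compared with 48.8% of all probes, and 1 of the 24 passed the thresholds, against 3.76% of all probes. That probe was the main SREBF1 probe, with a difference of -0.63 (SE 0.19), or 1.55-fold, an unadjusted p of 0.00451 and an adjusted p of 0.727 in limma. At this probe every RPS array lay above every CS array in liver and below every CS array in colon. The other SREBF1 probe gave -0.33 (SE 0.20) with an unadjusted p of 0.127. The SREBF1 difference was near the fold threshold and fell below it without colon CS replicate 2 (-0.53) and without colon RPS replicate 3 (-0.53). FASN gave -1.30 (SE 0.88), SCD -0.94 (SE 1.00), ME1 -1.02 (SE 1.00) and ACACA -0.59 (SE 0.56), and none of them passed. Single left-out arrays gave further calls: both ME1 probes without colon CS replicate 3 (-1.79 and -1.92), FASN A_72_P175196 without that array or without liver CS replicate 2 or 4 (-2.33 to -2.41) and ACLY A_72_P447091 without liver RPS replicate 3 or colon RPS replicate 4 (-0.77 and -0.81). Each of these had an adjusted p of 0.851 or above in limma. When single arrays were left out, 1507 to 2800 of all 43603 probes passed. Probes of 1 gene share arrays, and all probes share the liver arrays named above, so the common sign of the 24 is not 24 observations. Without liver CS replicate 3 the values were -0.64 for FASN and -0.20 for SCD. FADS2 passed without colon RPS replicate 2 and without both arrays that stood apart (adjusted p = 0.362 and 0.229 in limma), but no remaining colonic RPS array was well above background, so no size is given.

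The lipogenic genes were compared between tissues next, with call thresholds of adjusted p below 0.05 and 1.5-fold. Of the 24 probes, 18 passed, against 42.2% of all probes, and all 18 were lower in the colonic mucosa, against 18.7% of all probes called lower there. SCD gave 9 of the 18. By main probe 5 of the 8 genes passed, all lower in the colon. Of all 7230 genes with a named probe, 51.5% passed, and 1570 passed as lower. When only probes well above background were kept, 16472 of 30011 passed, 7144 of them lower. All probes of FADS2, DGAT2, ACACA, SCD and FASN and 1 of the 2 SREBF1 probes passed, and no ACLY or ME1 probe did.

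FADS2 had a mean of 2.83 ± 1.72 (log2, SD, n = 8) in the colon and 8.23 ± 0.48 in the liver, a difference of -5.40 (SE 0.59, adjusted p = 2.38e-06 in limma). It was well above background on 5 of the 8 colonic arrays, and with normexp background correction the difference was -2.19 (SE 0.16) and passed. DGAT2 had 7.39 ± 1.22 in the colon and 11.58 ± 0.39 in the liver. Its colonic arrays ranged from 5.98 to 9.86 and its liver arrays from 10.92 to 12.03, so the tissues did not overlap, and the difference was -4.19 (SE 0.45, adjusted p = 2.03e-06 in limma). ACACA had 6.15 ± 0.21 in the colon and 8.73 ± 0.81 in the liver, a difference of -2.58 (SE 0.28) or 5.99-fold. Non-overlap between tissues was found at 26.8% of all probes and at 5 of the 24 member probes, 1 each of ACACA, SREBF1 and FADS2 and both of DGAT2.

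FASN and SCD were lower in the colon, but liver CS replicate 3 overlapped with the colonic arrays. For FASN, liver CS replicate 1 (15.40) also lay below colon CS replicate 4 (15.88). FASN ranged from 13.80 to 15.88 in the colon and from 13.52 to 17.66 in the liver. The difference was -1.498 (SE 0.44, adjusted p = 0.0103 in limma), and p = 0.0104 in the exact two-sided permutation test. The other FASN probes gave -2.37 and -2.63. SCD ranged from 11.93 to 14.42 in the colon and from 12.52 to 17.03 in the liver, with a difference of -2.14 (SE 0.50, adjusted p = 0.00230 in limma), and its 9 probes gave -1.997 to -2.69. With CS arrays alone the differences were -0.85 for FASN and -1.67 for SCD and neither passed. With RPS arrays alone, 19 of the 24 probes passed, all lower in the colon, against 15023 of all 43603 probes, 6810 of them lower. With CS arrays alone 7 of the 24 passed, against 16043 of all 43603 probes, 7290 of them lower. Of the 7 member probes, 5 were lower and 2, both of ACLY, were higher (0.71 and 0.79).

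ACLY was the exception in direction, with a mean of 13.13 ± 0.31 in the colon and 12.62 ± 0.38 in the liver. The difference of 0.51 (SE 0.17, adjusted p = 0.0190 in limma) was below 1.5-fold, and the 3 ACLY probes gave 0.49 to 0.53. ME1 did not differ beyond its spread, with 7.81 ± 1.24 in the colon, 8.18 ± 0.76 in the liver and a difference of -0.37 (SE 0.50, adjusted p = 0.560 in limma). For SREBF1 the main probe gave -0.53 (SE 0.09, adjusted p = 0.000217 in limma), below 1.5-fold, and the other probe gave -0.96 (SE 0.10), which passed. That other probe is the one with runs that look like cloning sites.

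**Figure D5:**
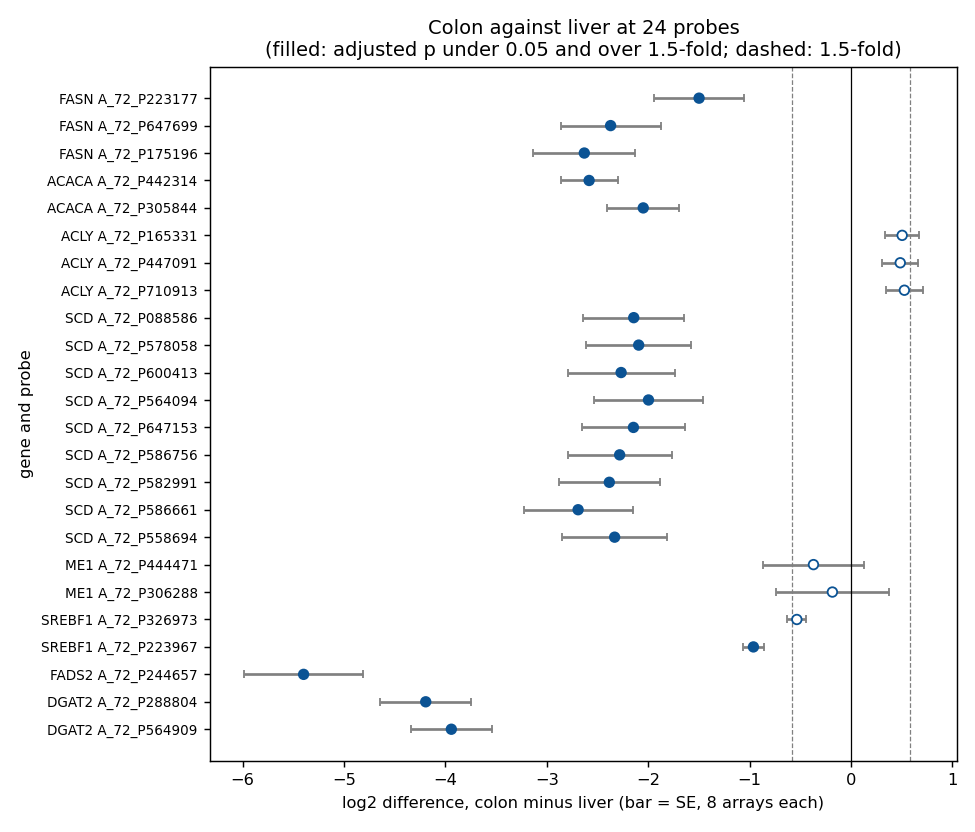
Difference between tissues, colon minus liver, at each of the 24 probes on the log2 scale over 16 arrays, with bars for the standard error from limma, filled points for probes with adjusted p below 0.05 and more than 1.5-fold, and dashed lines at 1.5-fold. FADS2 is at -5.40 and DGAT2 at -4.19 and -3.94, ACLY is the only gene to the right of 0, and ME1 is near 0.

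Further genes of the pathway were read at 1 probe each, namely 72 of 118 listed genes with a named probe. In liver, 0 of the 72 rose and 1 fell with RPS, and the median difference was 0.01, against -0.01 over all 7230 named genes, of which 3.33% passed. The gene that fell was ELOVL2, an elongase of polyunsaturated fatty acids, whose mean was 5.29 ± 0.70 for RPS and 7.43 ± 1.86 for CS (SD over 4 arrays, difference -2.14, SE 0.90, unadjusted p = 0.0469, adjusted p = 0.648 in limma). Of the 8 measured genes for carbon and NADPH supply, such as the pentose phosphate enzymes, 0 passed in liver, 7 had a higher mean with RPS, and the median was 0.33. None of the 23 triacylglycerol and lipid droplet genes, 17 regulators, 8 lipolysis genes or 6 malonyl-CoA and synthesis accessories passed in liver. The median difference was 0.03, -0.06, -0.12 and 0.01 in these lists.

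In the colon, 1 of the 72 rose and 3 fell with RPS, and 2.56% of all named genes passed. ACSL1, which activates long-chain fatty acids, fell by 0.72 on the log2 scale (SE 0.16, unadjusted p = 0.00278, adjusted p = 0.517 in limma), from 10.45 ± 0.23 to 9.72 ± 0.23. LIPA, the lysosomal acid lipase, fell by 0.68 (SE 0.27, unadjusted p = 0.0399, adjusted p = 0.902 in limma). PLIN5, a lipid droplet protein, and LIPC, hepatic lipase, gave the other calls, but PLIN5 was not well above background on any colonic array and LIPC was so on only 2 CS arrays. Of the 8 lipolysis genes 7 had a lower mean with RPS, with a median of -0.55. Of the adipocyte markers 8 of 10 were lower with RPS (median -0.58) and of the leukocyte markers 7 of 8 (median -0.46), and their part in the lipolysis values was not tested. For the interaction, ELOVL2 passed upward (3.05, SE 1.11, unadjusted p = 0.0155, adjusted p = 0.902 in limma) and ACACB, the carboxylase tied to fatty acid oxidation, passed downward (-0.64, SE 0.27, unadjusted p = 0.0360, adjusted p = 0.999 in limma). ELOVL2 was well above background on 2 of the 8 colonic arrays. ACACB was so on 7 but had low signals, with colonic means of 3.84 with RPS and 4.16 with CS.

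Between tissues, 52 of the 72 genes passed, 13 higher and 39 lower in the colon, and the median difference was -0.80, against 0.11 over all named genes, of which 51.5% passed. Of all 7230 named genes, 2150 passed as higher and 1570 as lower in the colon. Of the 10 genes of elongation, desaturation and acyl-CoA formation, 8 were lower in the colon and 1 was higher. ELOVL2 (-4.32) and ACSL1 (-3.40) were lower in the colon, and ELOVL1, an elongase of saturated chains, was higher by 2.21. In the carbon and NADPH list 3 genes were higher and 2 lower. PGD (2.07) and TKT (0.91) of the pentose phosphate pathway were higher in the colon, and pyruvate carboxylase PC (-3.0045) was lower. Of the accessories, PRKAB2 (1.21), a subunit of AMP-activated kinase, was higher, and PRKAA2 (-1.92), its catalytic subunit, and ACACB (-0.78) were lower. ACACB was well above background on 7 of 8 colonic arrays.

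Of the 23 triacylglycerol and lipid droplet genes, 3 were higher and 12 lower in the colon. MTTP, which loads triacylglycerol onto apolipoprotein B, was lower by 10.37 (SE 0.65) and was well above background on 4 of 8 colonic arrays. PLIN5 was at least 7.88-fold lower, because no colonic array was well above background. AGPAT4 (3.32) and AGPAT1 (1.46), acyltransferases of the glycerolipid pathway, were higher. In lipolysis, LIPC (-8.06, well above background on 2 of 8 colonic arrays) and PNPLA3 (-7.54) were lower, and LIPE (3.63), hormone-sensitive lipase, was higher. LPL, lipoprotein lipase, was at least 24-fold higher in the colon, since no liver array was well above background. Among 17 regulators, 2 were higher and 11 lower. MLXIPL, which encodes the glucose-responsive factor ChREBP, was lower by 6.27 (SE 0.29), as was the repressor NR0B2 (-6.33, well above background on 3 of 8 colonic arrays), while PPARG (6.71), the adipogenic nuclear receptor, and USF1 (1.29) were higher. The adipocyte marker ADIPOQ was well above background on 6 of 8 colonic arrays and on no liver array, and its part in the PPARG, LIPE and LPL signals was not tested.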

How the data were processed

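Total RNA of each tissue was labelled and hybridized to 1 one-color porcine array per sample. According to the labels, the authors extracted spots with Agilent Feature Extraction 10.7. The deposited intensity values are background-subtracted signals not normalized between arrays, and the deposited table holds the authors' log2 values, quantile normalized in GeneSpring (column medians 5.34, r of each column with its own array's log2 signal 0.998 to 1, so scale and direction are settled and no centring per probe was found; whether the 16 arrays were normalized together is not stated).

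Control spots were left out, outlier spots set to missing, log2 signals brought to common quantiles (the 8 arrays of each tissue for diets, 16 arrays otherwise) and spots averaged by probe. No filter was applied to signal. The diets were compared with limma 3.58.1 (lmFit and eBayes, R 4.3.3), with p-values adjusted by Benjamini-Hochberg over 43603 probes. A call needed unadjusted p below 0.05 (colon minus liver: adjusted p) and more than 1.5-fold. Single member probes were also compared with exact permutation tests. The number of arrays limits the precision, and the fits were tested on simulated data. Probe names were matched to the RefSeq table of Sscrofa11.1, which named 14640 probes (7230 genes). The genes, lists and tests were chosen with earlier results of these data known. Named list genes were those that passed (diets) or the 2 largest rises and 2 largest falls per list (tissues), and 1 list gene and 1 probe sequence are not reported here. A bound ("at least") sets a signal not well above background to the lowest signal above background on each array. Figures were drawn with matplotlib 3.10.9.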

Additional observations from a re-analysis of the deposited data

Results flagged for a closer look

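In 95 groups of 4 arrays (24 probes in 4 groups, less 1 group with a missing spot), the gap between the outermost array and its neighbor, as a share of the group's range, exceeded Dixon's critical value for 4 samples at 95% in 6 groups, where chance gives about 1 in 20. Liver RPS replicate 1 was high at FASN A_72_P647699 (0.868, 13.94 against 12.17 to 12.41), at FASN A_72_P175196 (0.919, 9.29 against 7.63 to 7.76) and at ACACA A_72_P442314 (0.947, 9.35 against 8.67 to 8.71). Liver CS replicate 2 was low at DGAT2 A_72_P564909 (0.868, 8.82 against 9.58 to 9.70). In the colon, RPS replicate 4 was high at ACACA A_72_P305844 (0.885, 7.01 against 6.318 to 6.398), and RPS replicate 3 was low at SREBF1 A_72_P326973 (0.924, 9.63 against 9.99 to 10.02). Liver CS replicate 3, the lowest array for FASN and SCD, did not reach the critical value at any probe.

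SREBF1 A_72_P326973 passed the unadjusted thresholds for a diet effect that differs between tissues. Its colonic effect minus hepatic effect was -0.63 (unadjusted p = 0.00451, adjusted p = 0.727 in limma). It was 1 of 24 member probes, against 3.76% of all probes. The other SREBF1 probe gave -0.33 (unadjusted p = 0.127 in limma). Without colon CS replicate 2 the value of -0.63 shrank to -0.53, below the fold threshold. The RPS arrays lay above the CS arrays in 4 of 4 liver arrays and below them in 4 of 4 colonic arrays.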

How the results depend on the processing

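Over 768 repeats of the main-probe differences under other settings, 732 kept their direction and side of the thresholds. The number of probes past the thresholds among all probes in liver was 220 after normexp background correction and 965 with probes well above background only, against 1554 as reported. In colon it was 1968 with 75th percentile scaling (1358 higher, 610 lower, against 708 and 575), 172 with normexp, 780 above background and 2384 without both colonic arrays that stood apart, a setting chosen after seeing the data. With normexp it was 10833 between tissues and 296 for the interaction, which gave 2602 without both arrays. The methods' t-test gave 1147 in liver and 964 in colon at its thresholds, and 1 and 0 probes after Benjamini-Hochberg adjustment. Leaving out each array gave 1406 to 2022 in liver, 1082 to 2620 in colon, 18126 to 18346 between tissues and 1507 to 2800 for the interaction. The member probes that passed were then 0 to 5, 0 to 1, 18 to 19 and 0 to 4. They were 1 in liver with 16 arrays in 1 fit (all probes: 1475), and 1 in colon and 2 for the interaction without both colonic arrays. With CS arrays only they were 7 between tissues (all probes: 16043). With the replicate number as a block, 2 member probes passed for the interaction, SREBF1 A_72_P326973 and FASN A_72_P175196 (-2.01), and all probes past the thresholds were 1522 in liver, 1267 in colon, 18366 between tissues and 1860 for the interaction. Deviations of same-numbered colonic and hepatic arrays correlated with r of 0.159 to 0.334 in the 4 CS pairs and -0.076 to 0.073 in the 4 RPS pairs, and those of CS and RPS arrays with r of -0.164 to 0.108 in liver and -0.507 to 0.549 in colon. Since not every pair was above 0.1 and no label ties a number to a pig, the numbers were not taken to pair samples, and for CS a shared pig remains possible. Leaving out single arrays turned 8 differences or effects, with ranges in liver of -0.048 to 0.45 for FADS2, and in colon of -0.43 to 0.26 for FASN, -0.079 to 0.142 for ACACA, -0.16 to 0.095 for ACLY, -1.04 to 0.22 for ME1 and -1.04 to 0.22 for DGAT2. The ranges were -0.63 to 0.014 for ME1 between tissues and -0.86 to 0.44 for the DGAT2 interaction. Colonic ACACA also turned with 75th percentile scaling (-0.026), normexp (-0.020) and without both colonic arrays (-0.012), and colonic ACLY with the authors' values (-0.0019), outlier spots kept (-0.0004) and at A_72_P447091 (-0.082). ME1 between tissues turned with CS arrays only (0.14) and without both colonic arrays (0.15). The cause was not tested.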
